A study of Mus musculus with 7 samples.

Results

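The miR-191 and miR-425 cluster is a pair of microRNA (miRNA) hairpins that lie next to each other on mouse chromosome 9. Its members were taken by name as the 5p and 3p arms of both hairpins, mmu-miR-191-5p, mmu-miR-191-3p, mmu-miR-425-5p and mmu-miR-425-3p, written below without the prefix for mouse. All 4 were present among the 1978 mature names of the count table, each on 1 line. They were followed through CD8+ T cells sorted from the spleens of gBT-I mice, a strain whose T cells share a transgenic receptor, which all groups carry. The groups were neonatal CD44hi CD122hi cells (neonatal VM, 2 libraries), neonatal CD44lo CD122lo cells (neonatal TN, 1 library), adult CD44hi CD122hi cells (adult VM, 2 libraries) and adult CD44lo CD122lo cells (adult TN, 2 libraries). VM stands for virtual memory, the field's name for cells with memory markers that have met no antigen, and TN for true naive. The labels give neither the exact ages nor the number of mice behind a library, so the replicates may be technical, and the p-values below cover only their spread.

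A miRNA hairpin is cut by Dicer into a duplex, of which usually 1 arm (the guide) is loaded into Argonaute while the other (the passenger) is degraded. The guide recognises messenger RNAs mainly through its seed, bases 2 to 8. The miR-191 and miR-425 hairpins are known to be made from a shared primary transcript, and miR-191-5p has been described in mice as supporting the survival of T cells after signals of common gamma chain cytokines. CD122, used here to sort the VM cells, is a receptor chain for the cytokines IL-2 and IL-15. MiR-191-5p and miR-425-5p are also in wide use as normalizers of miRNA measurements, that is, as miRNAs taken to be stable between samples.

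The hairpins are shown because they place all 4 arms in their context. In RefSeq (GRCm38.p6, plus strand of chromosome 9) Mir191 runs from 108568319 to 108568392 and Mir425 from 108568777 to 108568861, with 384 bases between them. The mature arms are in capitals, with the 5p arm first.
Mir191: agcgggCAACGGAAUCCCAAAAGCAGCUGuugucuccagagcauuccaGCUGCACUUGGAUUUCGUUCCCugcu
Mir425: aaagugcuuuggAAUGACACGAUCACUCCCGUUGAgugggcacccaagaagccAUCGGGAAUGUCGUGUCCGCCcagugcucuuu
In GENCODE M21 on the same build, both hairpins lie in the exon of transcript 4833445I07Rik-201, a long non-coding RNA on the plus strand (108567533 to 108569174). Mir191 also lies within the shorter transcript 4833445I07Rik-202, in none of its exons. The protein-coding gene Dalrd3 spans both hairpins in RefSeq (108567484 to 108572773), whereas GENCODE starts it downstream of them (108569886 to 108572774). GENCODE also lists a predicted miRNA on the minus strand over Mir191, Gm24083 (108568295 to 108568414), and whether the counting used strand is not given in the sources used here.

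The mature arms are shown with the seed in capitals, since the seed sets which messages an arm can pair with. MiR-489-3p is added as the 1 other mouse miRNA in the RefSeq set of 1679 mature names that carries the seed of a member.
miR-191-5p: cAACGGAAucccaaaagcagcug
miR-191-3p: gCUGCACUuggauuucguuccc
miR-425-5p: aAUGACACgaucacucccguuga
miR-425-3p: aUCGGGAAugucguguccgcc
miR-489-3p: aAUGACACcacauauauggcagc
The 4 members have 4 different seeds, so the cluster is a family by position and not by sequence. MiR-425-5p shares its seed AUGACAC with miR-489-3p, which lies on chromosome 6 and had 0 counts in all 7 libraries. A count of 0 allows up to 3 counts per library, which is 0.784 to 1.62 CPM, the count per 1000000 counts of the scaled library (this covers counting error only). No other mature name of the set has the seed of miR-191-5p, miR-191-3p or miR-425-3p.

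Library totals were 1577031 to 3278451 counts. CPM values below are scaled by TMM factors (0.781 to 1.28), which set a common centre between libraries and are not the raw shares. All 7 lymphocyte markers chosen to check the cell type were detected, with summed levels of 167000 to 287000 CPM in neonatal and 346000 to 593000 CPM in adult libraries. Much of this difference was miR-150-5p, at 62258 to 77562 CPM in neonatal and 207898 to 435180 CPM in adult libraries. Its age change over both subsets was -2.01 on the log2 scale. That of miR-181a-5p was 0.69, and those of the other lymphocyte markers were -1.36 to -0.13. The adult VM replicates lay further apart than others (SD of the log2 difference between replicates 0.72, against 0.43 in neonatal VM and 0.48 in adult TN). The sums of some markers of other cell types did not overlap between the ages. Taken singly, 47.6% of the 288 tested miRNAs did not overlap between the ages either. The 2 progenitor and endothelial markers summed to 54.4 to 75.8 CPM in neonatal and 8.09 to 26.3 CPM in adult libraries. The 5 stromal and muscle markers summed to 35.6 to 70.6 CPM in neonatal and 5.94 to 28.3 CPM in adult libraries, with miR-1a-3p at 0 counts in all. Most of the neonatal sum was miR-143-3p, with 64 to 216 unscaled counts in neonatal and 8 to 75 in adult libraries. MiR-145a-5p, miR-133a-3p and miR-199a-3p had at most 7.34 counts each in any library. The ages overlapped for the sum of the 3 erythroid markers (80.0 to 230 CPM in neonatal, 123 to 297 CPM in adult). Most of that sum was miR-486a-5p, with 174.5 to 707 unscaled counts in neonatal and 224.5 to 850 in adult libraries. The erythroid miR-451a did not overlap in unscaled counts, at 11 to 31 in neonatal and 4 to 9 in adult libraries. An overlap was also seen for the myeloid miR-223-3p (0.989 to 3.92 CPM in neonatal, 1.71 to 15.6 CPM in adult). The same held for the sum of the 2 epithelial markers (15.3 to 24.9 CPM in neonatal, 0.428 to 16.5 CPM in adult). The part of all these markers in the age changes below was not tested. In bulk libraries, fewer cells of a type and less RNA per cell cannot be told apart.

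MiR-191-5p, the guide arm of its hairpin, was among the 10 most counted miRNAs in every library and higher in neonatal cells. It held 4.01% and 3.93% of all counts in neonatal VM and 3.91% in neonatal TN, against 2.26% and 2.08% in adult VM and 1.78% and 1.98% in adult TN. The widest 95% Wilson interval of these shares, which covers counting error only, was 3.98% to 4.04% in neonatal VM replicate 1. It ranked 7th, 8th and 7th by count in the neonatal libraries and 10th in each of the 4 adult libraries. Every neonatal share was above every adult share, and within an age VM and TN cells lay close together. Shares of many miRNAs were higher in neonatal libraries. By library totals the median age change of the 288 tested miRNAs was 0.40 on the log2 scale, and that of miR-191-5p 0.95. How many miRNAs had shares that did not overlap between the ages was not counted.

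On the TMM scale miR-191-5p stood at 31283 and 30865 CPM in neonatal VM and 36281 CPM in neonatal TN, against 24745 and 23528 CPM in adult VM and 19788 and 25322 CPM in adult TN. Neonatal and adult libraries did not overlap, and the 2 adult TN libraries were further apart than any other replicate pair. Over both subsets miR-191-5p was 1.41-fold higher in neonatal cells (log2 fold change 0.50, SE 0.16, 95% interval 0.13 to 0.86, edgeR adjusted p = 0.028). Within TN cells it was 1.61-fold higher in the neonatal library (log2 fold change 0.69, SE 0.21, edgeR adjusted p = 0.0185), which as a lone library is assumed to vary like the other groups. Within VM cells the value was 0.37 and did not pass (SE 0.17, 95% interval -0.02 to 0.75, edgeR adjusted p = 0.097). The difference between these age changes, tested as an interaction, was -0.32 and did not pass (SE 0.27, edgeR adjusted p = 0.551).

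The call over both subsets was lost without any 1 of 5 libraries and with no filter on low counts (edgeR adjusted p = 0.197). The edgeR adjusted p was 0.072 without adult VM replicate 1, 0.0724 without adult TN replicate 1, 0.0809 and 0.0947 without neonatal VM replicates 1 and 2, and 0.0816 without the neonatal TN library, where the comparison rests on VM cells alone. The fold change stayed positive, at 0.35 to 0.52 on the log2 scale. In TN cells it was lost without adult TN replicate 1 (0.39, edgeR adjusted p = 0.199) and without neonatal VM replicate 1 or 2 (edgeR adjusted p = 0.1 and 0.0985), and with upper quartile factors (edgeR adjusted p = 0.134) or no filter (0.0567). In VM cells a call was gained without adult VM replicate 2 (log2 fold change 0.38, edgeR adjusted p = 0.011). It was also gained with RLE factors (0.49, edgeR adjusted p = 0.021), library totals (0.87, 0.00068), upper quartile factors (0.46, 0.038), a 100 CPM filter (0.59, 0.00995) and DESeq2 (0.49, DESeq2 adjusted p = 0.0105).

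The background of such calls was high. Of the 288 miRNAs tested, 53.8% passed with age over both subsets, 26.4% higher and 27.4% lower in neonatal cells. This split of 76 higher and 79 lower depended on the scaling, with 119 higher and 53 lower under library totals. Of the 3 tested arms of the cluster, miR-191-5p and miR-191-3p passed, both higher. The size of the miR-191-5p change was below the median of absolute changes over all tested miRNAs (0.79 on the log2 scale), and 66.0% of them had a larger absolute value. With TMM factors the neonatal and adult CPM did not overlap for all 3 tested arms, which held for 47.6% of the tested miRNAs (24.0% higher, 23.6% lower). Within TN cells 47.9% passed (26.4% higher, 21.5% lower), and within VM cells 53.8% (22.9% higher, 30.9% lower). Under library totals these splits were 106 higher and 38 lower in TN cells (76 and 62 with TMM factors) and 117 higher and 49 lower in VM cells (66 and 89 with TMM factors), and with upper quartile factors 56 higher and 79 lower in TN cells.

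MiR-191-3p, the passenger arm of the same hairpin, was counted 55 to 158 times per library. It stood at 37.1 and 41.3 CPM in neonatal VM and 39.8 CPM in neonatal TN, against 22.1 and 22.8 CPM in adult VM and 32.4 and 24.0 CPM in adult TN. The neonatal libraries again lay above all adult ones, with adult TN replicate 1 nearest to them. The arm was 1.60-fold higher in neonatal cells over both subsets (0.68 on the log2 scale, SE 0.22; edgeR adjusted p = 0.0298). In VM cells it was 1.75-fold higher (0.80 on the log2 scale, SE 0.31; edgeR adjusted p = 0.0434). Within TN cells the value was 0.51 and did not pass (SE 0.36, edgeR adjusted p = 0.271); it was 0.17 without adult TN replicate 2.

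Over both subsets the call of miR-191-3p was lost without adult VM replicate 1 or 2 (edgeR adjusted p = 0.104 and 0.0704), adult TN replicate 2 (0.0963) or neonatal VM replicate 1 or 2 (0.0791 and 0.138), and also with upper quartile factors (0.0775) or no filter (0.237). In VM cells it was lost without adult VM replicate 1 (edgeR adjusted p = 0.0842), adult TN replicate 1 (0.067) or neonatal VM replicate 1 or 2 (0.102 and 0.219), with no filter (0.156), and with DESeq2 (DESeq2 adjusted p = 0.0509).

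MiR-425-5p, the guide arm of the second hairpin, was the most even of the 3 tested arms with TMM factors. It stood at 2206 and 2198 CPM in neonatal VM and 2108 CPM in neonatal TN, against 2512 and 2479 CPM in adult VM and 2241 and 2767 CPM in adult TN. The neonatal libraries lay just below the lowest adult library. By share of all counts the ages overlapped, at 0.227% to 0.283% in neonatal and 0.202% to 0.230% in adult libraries. The age change over both subsets was -0.21 and did not pass (SE 0.16, 95% interval -0.58 to 0.17, edgeR adjusted p = 0.309), nor did that in VM (-0.18, edgeR adjusted p = 0.425) or TN cells (-0.25, edgeR adjusted p = 0.404). With each library left out the change over both subsets was -0.32 to -0.16, furthest from the reported value without adult TN replicate 1, and that in TN cells was -0.52 without adult TN replicate 1. Its SD of log2 CPM over the 7 libraries was 0.14, the 2nd lowest of 288 tested miRNAs with this scaling, whose median was 0.71. MiR-191-5p had an SD of 0.30 and was 30th from the lowest.

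MiR-425-3p, the passenger arm of miR-425, had too few counts for the test, which required 10 CPM in at least 2 libraries. It had 15 and 35 counts in neonatal VM and 26 in neonatal TN, against 18 and 8 in adult VM and 5 and 8 in adult TN. That is 7.42 and 9.14 CPM in neonatal VM and 8.09 CPM in neonatal TN, against 7.25 and 2.77 CPM in adult VM and 2.70 and 3.42 CPM in adult TN. All neonatal libraries were above all adult ones, with adult VM replicate 1 close to the lowest of them. Pooled by age, the level was 8.39 CPM in neonatal libraries (76 counts, exact Poisson interval 6.61 to 10.5) and 4.08 CPM in adult libraries (39 counts, 2.90 to 5.57), where the intervals cover counting error only. With no filter on low counts the age change over both subsets was 0.85 and did not pass (SE 0.45, edgeR adjusted p = 0.197).

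**Figure D1:**
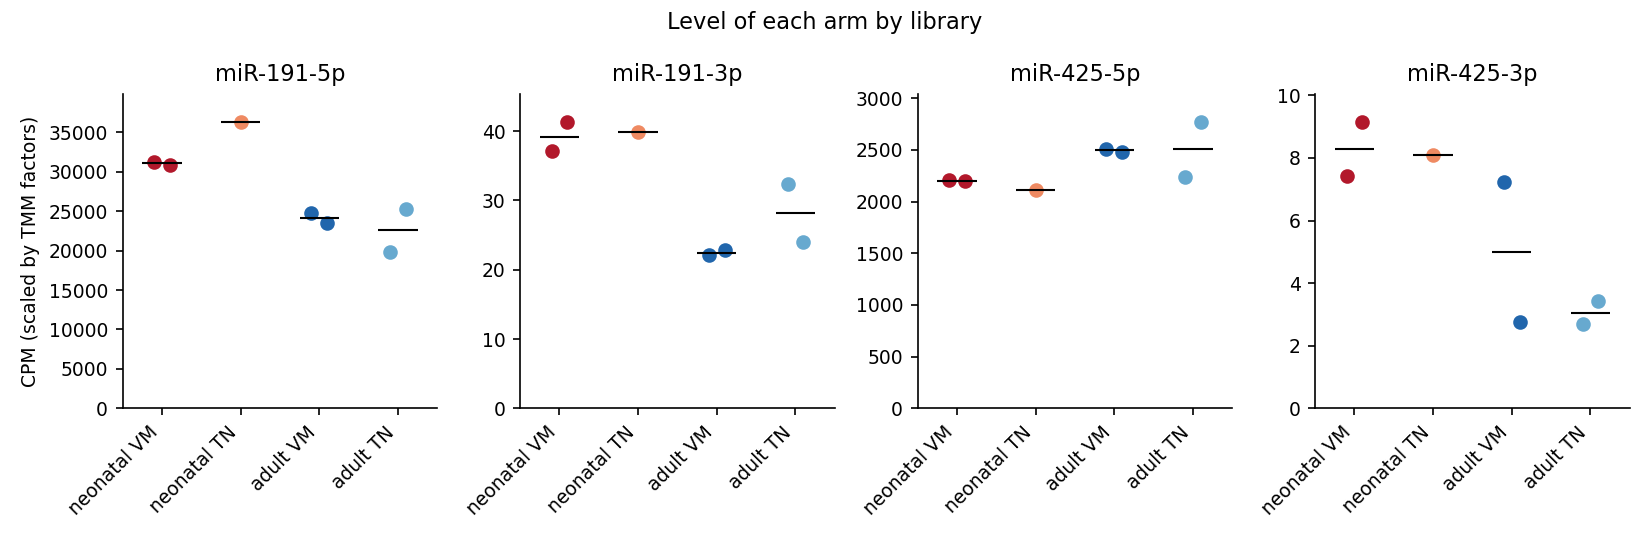
Level of each arm in each library, in CPM scaled by TMM factors (vertical axes from 0, a separate scale per arm); points are libraries and black lines group means. The neonatal libraries of miR-191-5p lie between 30865 and 36281 CPM and the adult ones between 19788 and 25322 CPM, while all libraries of miR-425-5p lie between 2108 and 2767 CPM.

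The balance of both guide arms was taken within each library, since a ratio of counts in 1 library does not depend on the scaling between libraries. There were 14.2 and 14.0 counts of miR-191-5p for each count of miR-425-5p in neonatal VM and 17.2 in neonatal TN, against 9.85 and 9.49 in adult VM and 8.83 and 9.15 in adult TN. Neonatal and adult libraries were far apart, and replicates within a group differed by little. How often ratios of other miRNA pairs or arms separate the ages was not counted. Of single tested miRNAs, 24.0% were higher and 23.6% lower in neonatal libraries without overlap. The 95% Wilson intervals, which cover counting error only, ran from 16.8 to 17.6 in neonatal TN and from 13.7 to 14.6 over both neonatal VM libraries. In the adult libraries they lay between 8.55 and 10.1.

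The mean ratio was 1.62-fold higher in neonatal libraries (mean log2 ratio 3.91 ± 0.17, SD, n = 3) than in adult libraries (3.22 ± 0.07, SD, n = 4). The exact two-sided permutation test gave p = 0.0571, the smallest possible with 3 against 4 libraries, and 0.171 after Benjamini-Hochberg adjustment over 6 ratio comparisons. The difference between ages was 0.55 on the log2 scale in VM and 0.94 in TN cells. VM and TN libraries overlapped (3.55 ± 0.32, n = 4, against 3.48 ± 0.54, n = 3; difference 0.07 on the log2 scale, exact permutation p = 0.971). Without each library in turn the age difference was 0.60 to 0.75.

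Summed over its 4 arms, the cluster held 4.30% and 4.22% of all counts in neonatal VM and 4.14% in neonatal TN, against 2.50% and 2.30% in adult VM and 1.99% and 2.20% in adult TN. MiR-191-5p made up 93.2% to 94.4% of the cluster in neonatal libraries and 89.7% to 90.7% in adult libraries. The summed share is therefore nearly that of miR-191-5p. It is likewise a raw share, on a scale where the median age change of all tested miRNAs was 0.40 (log2).

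The ratio of 5p to 3p arm, with 0.5 added to both counts, gives the balance within each hairpin. For miR-191 it was 838 and 745 in neonatal VM and 907 in neonatal TN, against 1110 and 1020 in adult VM and 606 and 1050 in adult TN. The ages overlapped, since adult TN replicate 1 was lowest of all (difference of mean log2 ratios -0.15, exact permutation p = 0.629). For miR-425 it was 288 and 237 in neonatal VM and 256 in neonatal TN, against 337 and 844 in adult VM and 755 and 761 in adult TN.

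The miR-425 arm ratio was thus lower in all neonatal libraries, by 1.29 on the mean log2 scale (8.02 ± 0.14, n = 3, against 9.31 ± 0.61, n = 4; exact permutation p = 0.0571, adjusted p = 0.171). It rests on 5 to 35 counts of the passenger arm. The Wilson interval of neonatal VM replicate 1 (180 to 491) overlapped those of all 4 adult libraries. That of adult VM replicate 1 (219 to 548) overlapped those of all 3 neonatal libraries. The intervals of adult TN replicate 1 (355 to 1950) and neonatal TN (178 to 382) also overlapped. VM and TN libraries overlapped for both arm ratios (differences of mean log2 ratios 0.14 for miR-191 and -0.50 for miR-425, exact permutation p = 0.686 for each).

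**Figure D2:**
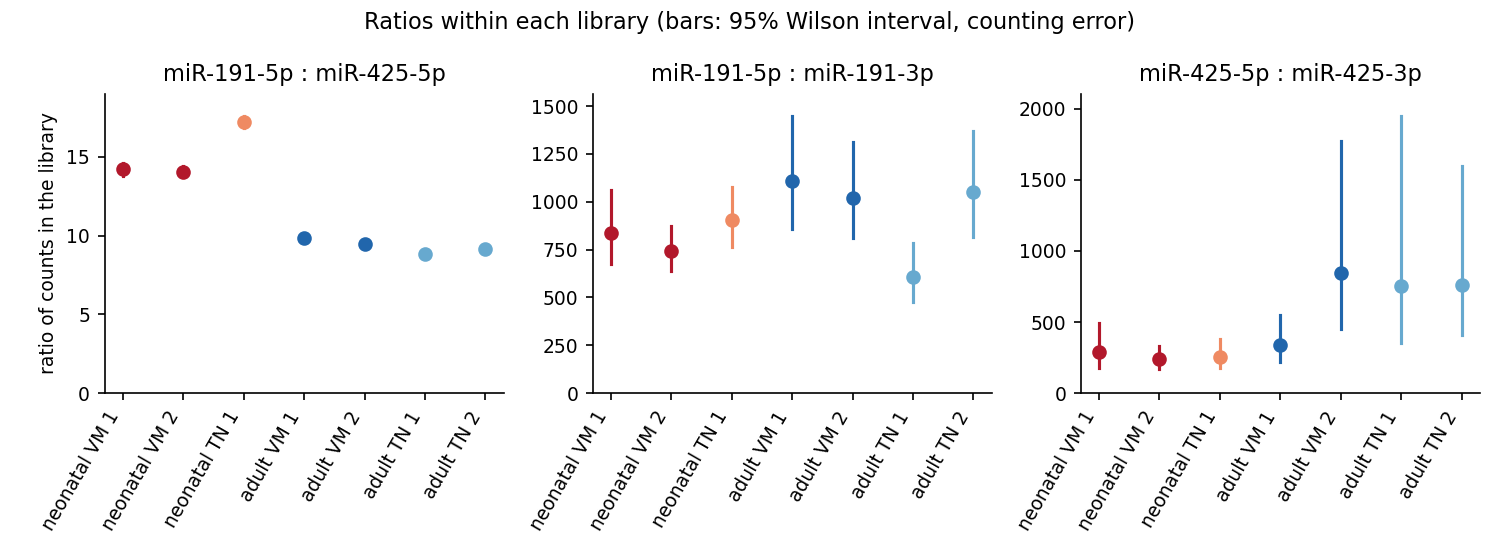
Ratios of counts within each library, on linear axes from 0: miR-191-5p to miR-425-5p (left), and 5p to 3p arm of each hairpin (middle and right); points are libraries and bars 95% Wilson intervals, which cover counting error only. The left panel shows the neonatal libraries between 14.0 and 17.2 and the adult ones between 8.83 and 9.85; the bars of the right panel are wide because the 3p arm had 5 to 35 counts.

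Between VM and TN cells, none of the 3 tested arms passed over both ages, where 24.7% of the tested miRNAs did (10.8% higher, 13.9% lower in VM cells). The counts were 31 higher and 40 lower, where library totals gave 59 and 27 and upper quartile factors 58 and 25. MiR-191-5p was at 23528 to 31283 CPM in the 4 VM libraries and 19788 to 36281 CPM in the 3 TN libraries, with a fold change of -0.03 on the log2 scale (SE 0.16, 95% interval -0.40 to 0.33, edgeR adjusted p = 0.907). MiR-425-5p was at 2198 to 2512 CPM in VM and 2108 to 2767 CPM in TN libraries (log2 fold change 0.02, SE 0.16, 95% interval -0.35 to 0.40, edgeR adjusted p = 0.921). MiR-191-3p was at 22.1 to 41.3 CPM in VM and 24.0 to 39.8 CPM in TN libraries (log2 fold change -0.20, SE 0.23, 95% interval -0.71 to 0.32, edgeR adjusted p = 0.554). Each arm's VM and TN libraries overlapped, whereas they did not for 18.8% of the tested miRNAs (10.1% higher, 8.68% lower).

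Within adult cells 38.9% of the tested miRNAs passed between VM and TN (23.3% higher, 15.6% lower), and within neonatal cells 9.72% (3.12% higher, 6.6% lower), with no tested arm of the cluster among them. In neonatal cells that is 9 higher and 19 lower, against 14 and 19 with RLE factors, 21 and 14 under library totals and 38 and 14 with upper quartile factors. In adult cells the log2 fold changes were 0.10 for miR-191-5p, -0.32 for miR-191-3p and -0.005 for miR-425-5p (SE 0.17, 0.31 and 0.19). In neonatal cells they were -0.22, -0.02 and 0.06 in the same order (SE 0.21, 0.36 and 0.23). The interaction, which 7.99% of the tested miRNAs passed (1.74% positive, 6.25% negative, or 5 and 18, against 8 and 14 with RLE factors and 18 and 12 with upper quartile factors), was 0.30 for miR-191-3p and 0.07 for miR-425-5p, and no arm passed. In these 4 comparisons no arm had an unadjusted p under 0.05, with edgeR or with DESeq2 and limma voom. For miR-191-5p over both ages, the interval still holds subset changes between -0.40 and 0.33 on the log2 scale.

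By group mean, miR-191-5p ran from neonatal TN (36281 CPM, 1 library) through neonatal VM (31074 ± 295) and adult VM (24136 ± 861) to adult TN (22555 ± 3913, SD, n = 2 each). No neighbours in this order passed the test of their difference. For miR-425-5p the order ran from adult TN (2504 ± 373) through adult VM (2496 ± 23.5) and neonatal VM (2202 ± 5.24, SD, n = 2 each) to neonatal TN (2108 CPM, 1 library), again with no neighbours told apart. Both orders hold for TMM factors and changed by share of all counts. MiR-425-5p was then lowest in adult TN (0.209%), below adult VM (0.224%), neonatal TN (0.227%) and neonatal VM (0.281%). MiR-191-5p was then higher in neonatal VM (3.97%) than in neonatal TN (3.91%).

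**Figure D3:**
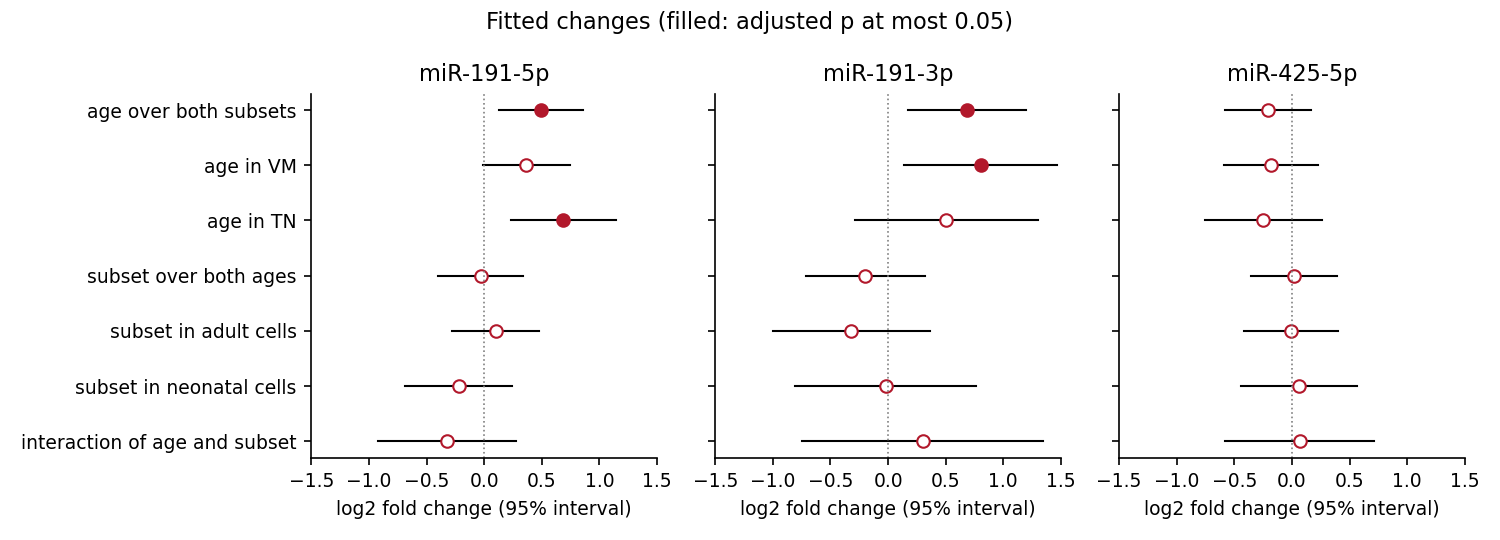
Fitted log2 fold changes of the 3 tested arms in 7 comparisons (horizontal axis, log2; points with 95% intervals from edgeR), filled where the adjusted p over all 288 tested miRNAs was at most 0.05. Age changes are neonatal over adult and subset changes VM over TN. The filled points are miR-191-5p with age over both subsets and in TN cells and miR-191-3p with age over both subsets and in VM cells.

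The centre chosen between libraries moved these values. Scaled by library totals alone, the median age change of all tested miRNAs was 0.40 on the log2 scale, against -0.05 with TMM factors. MiR-191-5p was then at 0.95 and miR-191-3p at 1.13 (edgeR adjusted p = 0.000413 and 0.00451). MiR-425-5p was at 0.25 under library totals, the opposite sign to its -0.21 with TMM factors, and did not pass under either (edgeR adjusted p = 0.176 under library totals). With RLE factors the changes were 0.56, 0.74 and -0.14, and with upper quartile factors 0.43, 0.62 and -0.27, in the order miR-191-5p, miR-191-3p and miR-425-5p. In all 4 scalings both miR-191 arms were above the median of all tested miRNAs and miR-425-5p below it. New factors move all miRNAs and their median nearly alike, so these positions are not 4 separate checks. MiR-191-5p lay 0.54 above the median with TMM factors and 0.55 above it with RLE factors, upper quartile factors and library totals.

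**Figure D4:**
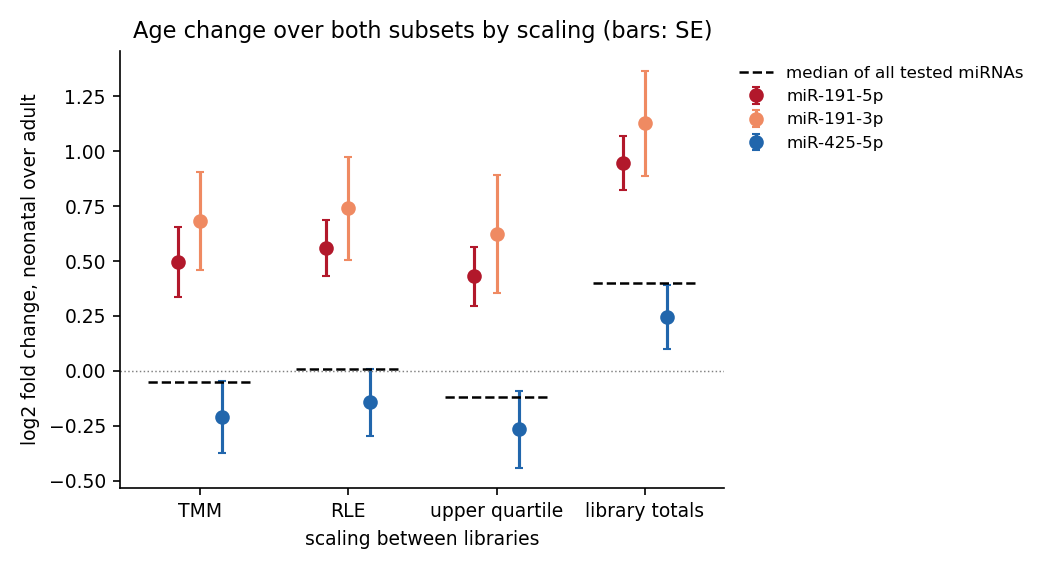
Age change over both subsets (vertical axis, log2 fold change, neonatal over adult; bars are SE) of the 3 tested arms under 4 scalings between libraries, with the median of all 288 tested miRNAs as a dashed line. The miR-191 arms stay above the dashed line and miR-425-5p below it, while the dashed line lies at -0.05 with TMM factors and 0.40 with library totals. Arms and line move nearly alike with the factors, so the 4 positions are not separate checks.

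Since miR-191-5p and miR-425-5p serve as normalizers, they were set beside 11 other miRNAs in common use for that purpose. With age over both subsets, where 53.8% of all tested miRNAs passed (26.4% higher, 27.4% lower), 2 of these 13 were higher and 1 lower. The median change of the 13 was 0.22 (-0.05 over all tested miRNAs). Besides miR-191-5p, miR-103-3p, which lies in introns of pantothenate kinase genes, was 1.53-fold higher, at 2426 to 2864 CPM in neonatal and 1480 to 1946 CPM in adult libraries (0.61 on the log2 scale, SE 0.18; adjusted p = 0.0179 by edgeR). Let-7a-5p, a let-7 family member, was 1.54-fold lower, at 8363 to 9413 CPM in neonatal and 9984 to 19029 CPM in adult libraries (-0.63 on the log2 scale, SE 0.22; adjusted p = 0.0356 by edgeR). Under library totals let-7a-5p did not pass (-0.17) and 6 of the 13 were higher and none lower. With each library left out 0 to 3 of the 13 were higher and 0 or 1 lower, with none higher without adult VM replicate 1, adult TN replicate 1 or either neonatal VM replicate. The call of let-7a-5p was lost without adult TN replicate 2 or either neonatal VM replicate.

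The other normalizers did not pass with age over both subsets. MiR-16-5p, of the miR-15/16 family, had a log2 fold change of 0.28 (edgeR adjusted p = 0.108) and miR-93-5p, of the miR-106b cluster, 0.22 (edgeR adjusted p = 0.267). MiR-30c-5p was at -0.07, miR-23a-3p at -0.11, miR-423-3p at 0.14, miR-26a-5p at -0.33, miR-484 at 0.42, miR-24-3p at 0.56 and miR-423-5p at 1.23 on the log2 scale. Within TN cells, where 47.9% of all tested miRNAs passed, the normalizers miR-191-5p, miR-103-3p and miR-24-3p (1.24) were higher and none lower. With upper quartile factors or no filter 1 was higher and 2 lower, and without adult TN replicate 1 none passed. Within VM cells, where 53.8% of all tested miRNAs passed, miR-103-3p (0.51) and miR-484 (0.63) were higher, and let-7a-5p (-0.90) and miR-26a-5p (-0.45) lower. Under library totals 9 were higher and none lower, with the opposite sign for miR-26a-5p (0.059), and without neonatal VM replicate 1 or 2 none was higher and 1 lower. Between VM and TN cells in adults, where 38.9% of all tested miRNAs passed, miR-24-3p was higher (0.76) and miR-23a-3p lower (-0.86). In neonatal cells, where 9.72% of all tested miRNAs passed, none of the 13 did. In adults none passed without adult TN replicate 2, and none was higher and 5 lower without adult VM replicate 2. In neonatal cells 1 was higher with upper quartile factors and 2 lower without adult VM replicate 2. Between VM and TN cells over both ages, where 24.7% of all tested miRNAs passed, none of the 13 did with TMM factors and the 10 CPM filter. With DESeq2 miR-23a-3p passed, and with a 100 CPM filter 1 was lower. Without the neonatal TN library, where the comparison rests on adult cells alone, 1 was higher and 1 lower.

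By spread over the 7 libraries with TMM factors, miR-425-5p varied least of the 13 (SD of log2 CPM 0.14), followed by miR-16-5p (0.16), miR-93-5p (0.18) and miR-30c-5p (0.20). It was also lowest of the 13 with RLE factors (0.11), but 2nd to miR-26a-5p under library totals (0.19, against 0.14) and 3rd with upper quartile factors (0.21, with miR-16-5p at 0.19 and miR-93-5p at 0.20). MiR-191-5p was 7th of the 13 with TMM factors and 5th to 10th with the other scalings, and miR-423-5p varied most (2.25). MiR-423-5p stood at 194 and 6330 CPM in the adult VM libraries and at 11026 to 14688 CPM in the other 5. The other 12 normalizers had SDs between 0.14 and 0.49, below the median of 0.71 over all tested miRNAs.

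**Figure D5:**
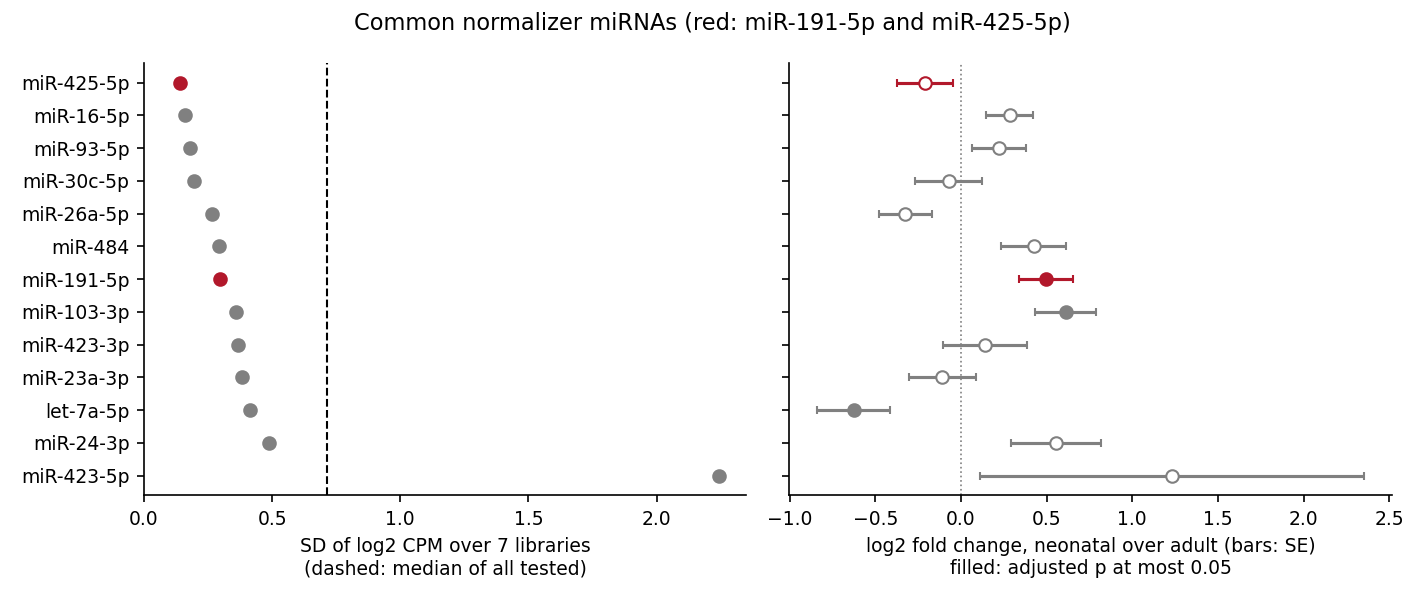
The 13 normalizer miRNAs ordered by their SD of log2 CPM over 7 libraries (left; dashed line, median of 0.71 over all 288 tested miRNAs) and their age change over both subsets (right; log2 fold change, neonatal over adult, bars are SE), filled where the edgeR adjusted p was at most 0.05. CPM are scaled by TMM factors. Members of the cluster are red: miR-425-5p has the lowest SD of the 13 with this scaling and an open point near 0, miR-191-5p an SD of 0.30 and a filled point at 0.50.

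The miRNAs whose levels ran most like miR-191-5p over the 7 libraries, by Pearson's r of log2 CPM, were miR-148b-3p (0.95), miR-1981-5p (0.95), miR-501-3p (0.94), miR-16-5p (0.94) and miR-671-3p (0.93). Those most like miR-425-5p were miR-1191a (0.93), miR-7015-3p (0.88), miR-664-3p (0.87), miR-350-5p (0.85) and miR-6516-5p (0.84). MiR-148b-3p averaged 2760 CPM in neonatal VM and 3290 CPM in neonatal TN, against 1180 CPM in adult VM and 1070 CPM in adult TN, an age change of 1.39 on the log2 scale. These correlations share the same 7 libraries and scaling and follow the split by age. They depended on the scaling: with RLE, upper quartile and library total scaling, 3, 2 and 2 of the 5 named for miR-191-5p were again among its closest 5, and 0, 1 and 0 of those named for miR-425-5p. Under library totals the r of those named for miR-425-5p was -0.62 to 0.31. It was 0.72 to 0.81 with RLE and 0.71 to 0.88 with upper quartile factors. For those named for miR-191-5p, r was 0.82 or higher in each of these scalings.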

How the data were processed

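Per the labels' protocols, CD8+ cells were enriched with beads from spleens, stained and sorted by CD44 and CD122, and RNA was turned into TruSeq small RNA libraries. The authors deposited estimated counts per mature arm and precursor, some of them fractional. The submitters' processing notes name mm10, and the aligner and counter are not given in the sources used here. Counts were summed per mature name (85 names stood on more than 1 line, no member among them) and then rounded, by at most 0.5 and for no member.

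MiRNAs reaching 10 CPM in 2 or more libraries (15.8 to 32.8 counts), 288 in all, were tested with edgeR 4.0.16 in R 4.3.3, by its robust quasi-likelihood test with TMM factors and Benjamini-Hochberg adjustment over all 288 at 0.05. Averages over subsets or ages came from an additive model, and the other comparisons from a model of 4 group means. Ratios of counts were compared by exact two-sided permutation tests. Named miRNAs were the members, the seed sharer, the 13 normalizers, the markers and the 5 most correlated with each guide arm. Members and lists were chosen with earlier results of these data known. The fits were also run on simulated counts with a common dispersion and larger changes than those of the members in the main fits. That run therefore does not assess the calls reported here. Alternatives were other scaling factors, other filters, DESeq2 1.42.0, limma voom (limma 3.58.1), dispersions without the robust option, a block for replicate number and each library left out. All 7 libraries entered the main tests. Reads and target genes were not analysed here.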

Additional observations from a re-analysis of the deposited data

How the results depend on the processing

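Both miR-191 arms kept a positive age change in every setting run. MiR-425-5p passed in none, and its age change was positive under library totals and, in VM cells, with a 100 CPM filter (0.04). No arm passed with subset or in the interaction under any setting. For miR-191-5p with age over both subsets, the change was 0.35 with no filter and 0.50 with the replicate block, where it did not pass (edgeR adjusted p = 0.197 and 0.0685), and 0.346 to 0.521 with each library left out. In TN cells it was 0.38 with upper quartile factors and 0.51 with no filter, not passing, and 0.394 to 0.750 with each library left out. In VM cells it passed at 0.49 with RLE factors, 0.87 with library totals, 0.46 with upper quartile factors, 0.59 with a 100 CPM filter and 0.49 with DESeq2, and ranged from 0.322 to 0.395 with each library left out. MiR-191-3p with age over both subsets did not pass at 0.62 with upper quartile factors, 0.54 with no filter and 0.68 with the replicate block, nor with the block in VM cells (0.81, edgeR adjusted p = 0.0657), and ranged from 0.573 to 0.829 with each library left out. The normalizer miR-26a-5p turned from -0.45 in VM cells to 0.059 under library totals. The causes were not tested. The ratio of miR-191-5p to miR-425-5p and the arm ratios moved by less than the spread between libraries with another pseudocount. The spread of the normalizers under other scalings was computed after seeing the data, as were the closest miRNAs.

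Counts of miRNAs past the test are not on the same base between filters, since 153 miRNAs were tested with a 100 CPM filter and 878 with no filter. With the 100 CPM filter they were 79 for age over both subsets, 69 in TN, 93 in VM and 41 for subset over both ages. The reported counts, out of 288, were 155, 138, 155 and 71. For subset in neonatal cells (28 of 288) the counts were 52 with upper quartile factors and 53 of 878 with no filter. For the interaction (23 of 288) they were 43 of 878 with no filter, 37 with DESeq2 and 15 with limma voom. With each library left out they ranged from 115 to 158 for age over both subsets, 83 to 179 in TN, 106 to 171 in VM, 18 to 111 for subset over both ages, 23 to 142 in adult and 16 to 77 in neonatal cells, and 6 to 86 for the interaction. The labels do not say whether the replicate numbers pair the libraries. Deviations of the replicates correlated little between groups (0.02, 0.14 and -0.16), but these values leave out neonatal TN and cannot exclude a pairing. With the block, 42 miRNAs passed with subset over both ages. Depth limits miR-425-3p, at 5 to 35 counts, and 1 neonatal TN library gives no spread of its own. Without it, age in TN, subset in neonatal cells and the interaction could not be computed. Age over both subsets then rests on VM cells alone. Subset over both ages then rests on adult cells alone, with 66 higher and 45 lower, the upper end of its range. MiR-191-3p was not tested with the 100 CPM filter.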
